A study of Mus musculus with 20 samples.

Results

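The 35 genes described here are direct transcriptional targets of the tumour suppressor p53. They were taken as a named list of targets and matched by symbol to the Ensembl gene IDs of an expression table of 20636 genes. All 35 were found, and all 35 were among the 16648 genes that passed the minimum level and were tested. Their RNA was measured in whole pancreatic ductal adenocarcinomas of mice, 5 tumours in each of 3 genotypes.

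All mice carried an oncogene allele that Cre recombinase switches on, Rosa26LSL-tdTomato/LSL-tdTomato, a red fluorescent reporter that Cre also switches on, and Ptf1aCreER, which places tamoxifen-inducible Cre in the acinar cells that secrete digestive enzymes. KPAT mice carried Trp53fl/fl and Arf-fl/fl, so that Cre removes p53 and the Arf product of Cdkn2a. KPT mice carried Trp53fl/fl only, and KAT mice carried Arf-fl/fl only, with Trp53 not floxed. Every mouse received 5 mg of tamoxifen by mouth on each of 3 days at 8 to 10 weeks of age and was then kept until it fell ill. The labels do not give the age at which each tumour was taken. The tumours were not sorted, so cells in which Cre never acted add their RNA, with their own intact Trp53. The series also holds 5 KT tumours with neither gene floxed, which are not analysed here.

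p53 is a transcription factor that DNA damage and oncogene activity stabilise. It binds DNA as a tetramer at paired sites and switches on genes that stop the cell cycle, start apoptosis, repair DNA and change metabolism. Mdm2, itself a target, marks p53 for destruction, and Arf holds Mdm2 back, so loss of Arf is known to weaken p53 signalling while p53 itself stays intact. By design the cancer cells of KPAT and KPT tumours lack the factor that acts on these targets, and those of KAT tumours lack an upstream activator of it.

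The p53 response element was looked for near the gene starts. RefSeq windows of 300 bases, from 250 before to 50 after a start on GRCm38.p6, were on hand for 27 of the 35 genes. The search took the consensus of 20 bases by its name, the p53 response element, made of a 10-base unit repeated without a spacer. A unit holds 3 purines, the core, and 3 pyrimidines, and it reads as the same consensus on both strands. With 1 mismatch allowed outside the C and the G of each core, 3 of the 27 genes (11.1%) held an element, against 8 of the 12027 tested genes with a window (0.0665%), a number that includes these 3. They are shown because they match, with 1 mismatch, the kind of sequence by which p53 is known to recognise its targets. They lie in Cdkn1a (chr17:29090928-29090947, plus strand), Ccng1 (chr11:40755462-40755481, minus strand) and Rps27l (chr9:66946296-66946315, plus strand). Capitals mark the core of each unit.
Cdkn1a: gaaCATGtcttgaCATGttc
Ccng1: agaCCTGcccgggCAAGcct
Rps27l: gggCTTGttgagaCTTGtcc

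The mismatch stood at base 11 in Cdkn1a, at base 5 in Ccng1 and at base 10 in Rps27l, counted from 1 at the left end of each element. The Cdkn1a element began 51 bases before an upstream start of that gene, and the Ccng1 element 195 bases before its start. The Rps27l element began 117 bases before a downstream start. It lies inside the gene as annotated, which begins at base 66946086. The other 5 genes with an element were Calhm2, Gm15987, Gtse1, Mthfd1 and Sptbn4, of which Gtse1 is itself known as a p53 target. An exact 10-base unit was present in 10 of the 27 genes (37%), against 8.36% of the tested genes with a window, and the windows had a median GC content of 59.7% against 60%. The 27 genes had 43 windows and the 12027 had 15323, so the targets had more windows a gene. Because the list was chosen as direct p53 targets, these shares are described and not tested. Examples are given with 10 bases on either side for genes whose window held such a unit without a full element, with the unit in capitals. They come from Mdm2 (chr10:117710925-117710954, minus strand), Bax (chr7:45467080-45467109, minus strand), Aen (chr7:78895927-78895956, plus strand) and Sesn1 (chr10:41887256-41887285, plus strand).
Mdm2: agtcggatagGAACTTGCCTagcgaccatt
Bax: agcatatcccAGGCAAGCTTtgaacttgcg
Aen: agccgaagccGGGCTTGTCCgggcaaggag
Sesn1: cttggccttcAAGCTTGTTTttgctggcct

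A match describes letters, not binding, and a window of this size leaves out elements known in introns, such as those of Mdm2. No exact unit was found in the windows of Ak1, Eda2r, Phlda3 or Pltp, 4 of the genes described below with large differences. Windows for the other 8 genes, among them Pmaip1, Perp and Zmat3, were not used here.

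The libraries held 14696138 to 26248484 reads in KPAT, 16622901 to 23039354 in KPT and 16704627 to 22124495 in KAT. Levels below are in the deposited units, whole reads divided by 1 factor per library, in which 1 unit equals 19.478 reads on average. Fold changes are differences of log2(19.478 × level + 1) from limma, and "called" means a Benjamini-Hochberg adjusted p under 0.05 over all 16648 genes. The epithelial markers Epcam, Krt7, Krt8, Krt18, Krt19, Cdh1, Cldn4, Cldn7, Muc1 and Sox9 were above 0 in every library, as the tissue label requires. The KPT tumours stood apart in their makeup. Summed fibroblast markers ran from 5335 to 14185 units in KPAT, from 1003 to 4202 in KPT and from 6786 to 9832 in KAT, and all 10 were called lower in KPT against KAT. Summed epithelial markers ran from 8196 to 10999 units in KPAT, from 11419 to 19531 in KPT and from 7283 to 11986 in KAT, with 5 of 10 called higher in KPT against KAT. Of 10 macrophage markers 7 were called lower in KPT against KAT, and their sums were 907 to 1926 units in KPAT, 616 to 1079 in KPT and 1625 to 3078 in KAT. Intestinal markers, 3 of 8 called higher in KPT against KAT (median log2 fold change 2.16) and 3 lower in KPAT against KPT (-2.17), summed to 429 to 1331 units in KPAT, 1115 to 5341 in KPT and 397 to 2327 in KAT. Of 8 endothelial markers 2 were called lower in KPT against KAT and 2 higher in KPAT against KPT. Over all genes 15.6% were called lower and 13.3% higher in KPT against KAT. In KPAT against KPT these shares were 7.4% and 9.13%. No fibroblast or macrophage marker was at 0 in any library. No marker of any of 10 cell types was called in KPAT against KAT, where 0.012% of all genes were called lower and 0.036% higher. An equal makeup does not follow from this. The median log2 fold changes there were -0.65 for macrophage, -2.33 for T cell and -3.13 for B cell markers. They were 0.09 for epithelial and 0.08 for fibroblast markers. Some T cell and B cell markers were at 0 in some libraries. Fewer cells of a type and less RNA per cell cannot be told apart in whole tumours. The labels' library numbers form separate ranges for the 3 genotypes, so genotype and any batch tied to those numbers cannot be told apart.

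Trp53 (ENSMUSG00000059552, chr11:69580359-69591873, build GRCm38) was lower in every tumour in which it was floxed than in any KAT tumour. Its level was 57.2, 44.7, 32.9, 36.6 and 38.3 in the KPAT tumours, 22.7, 23.5, 26.3, 26.1 and 22.8 in the KPT tumours, and 127, 111, 99.0, 138 and 148 in the KAT tumours. None of the 3 groups overlapped with another. Trp53 fell in KPAT against KAT (log2 fold change -1.58, SE 0.15, adjusted p = 6.05e-05) and in KPT against KAT (-2.35, SE 0.15, adjusted p = 3.10e-07). Between the genotypes in which it was floxed, it was higher in KPAT than in KPT, by 0.76 log2 units (SE 0.15, adjusted p = 0.0056). The value counts reads over the whole gene, and the labels do not name the deleted exons. Cdkn2a, which also encodes p16Ink4a, was not called in any comparison, and a count over the whole gene does not check the Arf deletion.

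**Figure D1:**
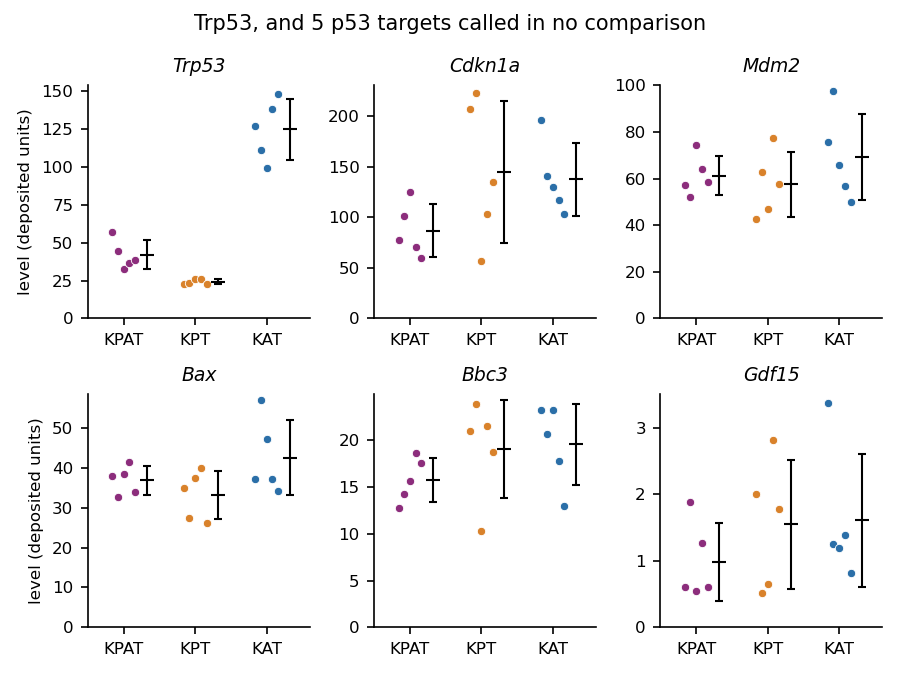
Level in deposited units (vertical axis, from 0) of Trp53 and of 5 p53 targets in each KPAT, KPT and KAT tumour (points, 5 a group), with mean ± SD in black. Trp53 separates the 3 groups, while the groups overlap for Cdkn1a, Mdm2, Bax, Bbc3 and Gdf15.

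KPAT against KAT asks what loss of p53 adds where Arf is already lost. Although Trp53 fell, none of the 35 targets was called in it, with adjusted p from 0.317 (Ccng1) to 0.999 in limma, and none by edgeR or by DESeq2. Few genes of any kind were called here: 0.012% of the genes tested were called lower and 0.036% higher by limma, 0.042% in all by edgeR and 1.72% by DESeq2. At an unadjusted p under 0.05 were 2 of the 35 targets (5.71%), Ccng1 and Sesn1, against 10.8% of all genes tested. The median log2 fold change of the 35 was -0.15, with 26 below 0 and 9 above, against a median of -0.00 over all genes. Fold changes ran from -0.77 (Pltp) to 0.34 (Epha2). For 27 of the 35 the 95% interval lay within 1 log2 unit of 0 on either side. The other 8 were Cdkn1a, Gdf15, Pmaip1, Eda2r, Sesn1, Pltp, Epha2 and Sulf2, whose intervals passed that limit on 1 side or the other.

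In KPT tumours, where Trp53 alone was floxed, the targets split. KPT against KAT sets loss of p53 against loss of Arf. Here 7 of the 35 fell (20%), namely Ak1, Eda2r, Phlda3, Zmat3, Ccng1, Aen and Pltp, and 3 rose (8.57%), namely Pmaip1, Perp and Cd82. Of all genes tested 15.6% were called lower and 13.3% higher, so the shares of the targets were near those of all genes. Non-overlapping groups showed the same: 3 targets lay wholly lower in KPT against 9.24% of all genes (8.57% of the targets), and 1 lay wholly higher (2.86%) against 8.38%. The median log2 fold change was -0.19, with 27 below 0 and 8 above, against -0.03 over all genes.

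KPAT against KPT asks what loss of Arf adds where p53 is already lost. Targets called higher were 4 of 35 (11.4%), namely Ak1, Eda2r, Phlda3 and Zmat3, against 9.13% of all genes, and Pmaip1 was the 1 target called lower (2.86%), against 7.4% of all genes. The median was 0.14, with 14 targets below 0 and 21 above, against 0.02 over all genes. The KAT tumours are shared by KPAT against KAT and KPT against KAT, and the KPT tumours by KPT against KAT and KPAT against KPT, so the calls in different comparisons are not independent of each other. With the mean log2 level of the epithelial markers as a covariate, 1 target (Ak1) remained called in KPT against KAT and 0 in KPAT against KPT. With that of the fibroblast markers, 0 remained in either. In KPT against KAT the folds moved unequally, given here without a covariate, then with the epithelial and the fibroblast covariate. Ccng1 was at -0.72, -0.67 and -0.69, Phlda3 at -0.90, -0.67 and -0.83, and Zmat3 at -1.12, -0.84 and -1.0. Aen was at -0.70, -0.41 and -1.12, and Pmaip1 at 1.34, 0.81 and 1.16. Perp was at 0.63, 0.44 and 0.18, and Eda2r at -2.34, -1.97 and -1.07. Pltp was at -1.83, -1.7 and 0.77, and Cd82 at 0.58, -0.02 and 0.42. Ak1 went from -1.41 to -0.81 with the fibroblast covariate. Summed fibroblast markers of every KPT tumour lay below those of every KPAT and KAT tumour. These fits therefore cannot cleanly separate the fibroblast level from genotype. Why calls were lost was not tested. The same covariates lowered the calls over all genes from 4805 to 748 (epithelial) and 437 (fibroblast) in KPT against KAT.

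**Figure D2:**
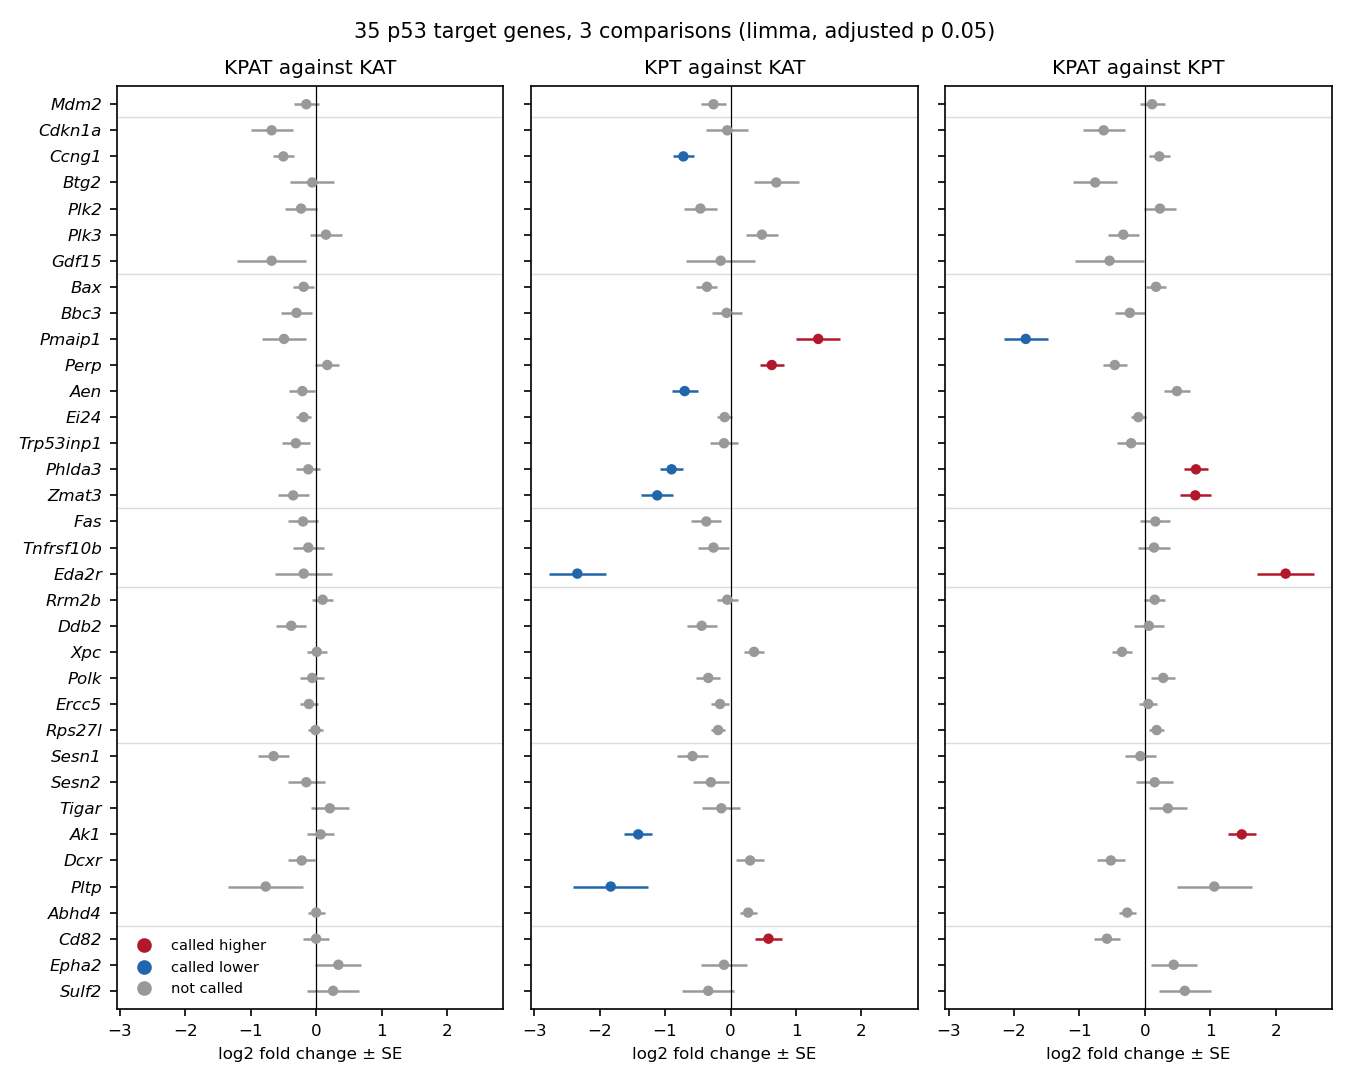
Log2 fold change ± SE (horizontal axis) of each of the 35 p53 targets in KPAT against KAT, KPT against KAT and KPAT against KPT, grouped by role with grey lines between the roles. Colour marks limma calls at adjusted p 0.05: 0 targets in KPAT against KAT, 7 lower and 3 higher in KPT against KAT, 1 lower and 4 higher in KPAT against KPT.

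Mdm2, the ubiquitin ligase that closes the feedback loop on p53, was not called in any comparison. Its level was 57.3, 52.3, 74.2, 63.9 and 58.5 in KPAT, 42.5, 62.8, 47.1, 77.6 and 57.6 in KPT, and 75.9, 97.6, 65.7, 57.0 and 49.9 in KAT. The 3 groups overlapped. The log2 fold change was -0.15 in KPAT against KAT (95% interval -0.55 to 0.25) and -0.26 in KPT against KAT (-0.66 to 0.14).

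Of the 6 genes grouped here under cell cycle arrest, 1 was called by the main limma fit, Ccng1, lower in KPT against KAT. Over all genes 15.6% were called lower there. Cdkn1a encodes p21, the inhibitor of cyclin-dependent kinases that carries out much of p53's arrest. Its level was 77.3, 101, 125, 70.7 and 59.7 in KPAT, 207, 223, 56.5, 103 and 135 in KPT, and 196, 141, 130, 117 and 103 in KAT. The KPT tumours spread over the range of the others, and KPT 1 and KPT 2 were the highest of all 15 tumours, although Trp53 was floxed in them. In KPAT, 4 of the 5 tumours lay below every KAT tumour, and KPAT 3 lay among them. The log2 fold change of Cdkn1a was -0.68 in KPAT against KAT (SE 0.32, adjusted p = 0.464), -0.05 in KPT against KAT (SE 0.32, adjusted p = 0.924) and -0.63 in KPAT against KPT (SE 0.32, adjusted p = 0.192). Without KPT 3, its lowest KPT tumour, the last value was -0.93 and was called (adjusted p = 0.0326).

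Ccng1 encodes cyclin G1, an atypical cyclin that p53 induces. Its level was 90.3, 85.1, 94.8, 69.3 and 77.6 in KPAT, 59.2, 74.9, 59.2, 73.5 and 95.7 in KPT, and 121, 166, 116, 90.3 and 106 in KAT. Of the 5 KAT tumours 4 lay above every tumour of the other groups, and KAT 4 lay among the highest of them. Ccng1 fell in KPT against KAT (log2 fold change -0.72, SE 0.16, adjusted p = 0.00575). In KPAT against KAT the change was -0.50 (SE 0.16, 95% interval -0.85 to -0.15, unadjusted p = 0.00827, adjusted p = 0.317), and KPAT against KPT gave 0.22 (adjusted p = 0.385). It is also a gene with a match to the p53 response element in the window shown above, which does not show binding.

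The other genes grouped under cell cycle arrest were not called by the main limma fit. Btg2, an antiproliferative cofactor, ranged from 47.0 to 118 in KPAT, from 50.3 to 225 in KPT and from 54.2 to 112 in KAT, and KPT 3 was again the lowest KPT tumour. Its change in KPT against KAT was 0.70 (adjusted p = 0.134), and it was called without KPT 3 (1.02, adjusted p = 0.0133) and by DESeq2 (0.82, adjusted p = 0.043). DESeq2 also called it lower in KPAT against KPT (-0.87, adjusted p = 0.0442). Plk2 and Plk3, polo-like kinases of the stress response, had changes of -0.46 and 0.48 in KPT against KAT. Plk3 was called there without KPT 5 (0.69, adjusted p = 0.0225). Gdf15, a secreted cytokine of the TGF-beta family, had the lowest mean level of the 35 genes in KPAT and KAT, with 8 to 72 reads a tumour over the 3 groups, and its interval in KPAT against KAT ran from -1.80 to 0.43.

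Of 9 genes grouped here under apoptosis, 3 fell (Phlda3, Zmat3, Aen) and 2 rose (Pmaip1, Perp) in KPT against KAT. Over all genes 15.6% were called lower and 13.3% higher there, and a count among 9 genes is too small to set apart from these shares. The best known members, Bax and Bbc3, were not called. Bax, which opens pores in the mitochondrial outer membrane, was at 37.8, 32.6, 38.5, 41.4 and 33.9 in KPAT, 35, 27.4, 37.3, 39.8 and 26.1 in KPT, and 37.1, 57.0, 47.1, 37.2 and 34.2 in KAT. Its change was -0.19 in KPAT against KAT (95% interval -0.52 to 0.15) and -0.36 in KPT against KAT (-0.69 to -0.02, adjusted p = 0.104). Bbc3, the BH3-only protein PUMA, was at 12.7, 14.2, 15.6, 18.6 and 17.5 in KPAT, 20.9, 23.8, 10.3, 21.5 and 18.7 in KPT, and 23.2, 20.6, 23.2, 17.7 and 12.9 in KAT. The groups overlapped for both genes. Of the 31-base stretches in Bax transcripts, 9.9% are shared with Gm45808, so part of its reads may be split with that gene.

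Pmaip1, the BH3-only protein NOXA, went the other way from most targets. Its level was 60.2, 41.5, 66.1, 55.4 and 19.9 in KPAT, 233, 226, 157, 94.8 and 129 in KPT, and 65.0, 89.7, 86.0, 54.5 and 36.1 in KAT. Every KPT tumour exceeded every KPAT and KAT tumour. Pmaip1 rose in KPT against KAT (log2 fold change 1.34, SE 0.34, adjusted p = 0.0107) and fell in KPAT against KPT (-1.82, SE 0.34, adjusted p = 0.00508). With the epithelial markers as a covariate the first change was 0.81 (adjusted p = 0.356), and with the fibroblast markers 1.16 (adjusted p = 0.281).

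Perp, a membrane protein of desmosomes in epithelia, was at 121, 101, 149, 152 and 137 in KPAT, 208, 179, 199, 162 and 156 in KPT, and 147, 168, 110, 85.0 and 91.3 in KAT. The KPT tumours lay above every KPAT tumour, and the KAT tumour at 168 lay among them. Perp rose in KPT against KAT (log2 fold change 0.63, SE 0.18, adjusted p = 0.0187). It was no longer called without KAT 4 (0.52, adjusted p = 0.0522) or KAT 5 (0.54, adjusted p = 0.0506), nor with the epithelial (0.44) or fibroblast (0.18) markers as a covariate. Epithelial markers were higher and fibroblast markers lower in KPT, and the part of either in the result was not tested beyond these fits.

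Phlda3, a pleckstrin homology protein that competes with the survival kinase Akt for membrane lipids, was at 55.6, 89.2, 52.5, 62.5 and 93.2 in KPAT, 42.7, 36.7, 48.2, 44.7 and 29.9 in KPT, and 61.7, 83.1, 90.7, 70.4 and 69.9 in KAT. All KPT tumours lay below all others. It fell in KPT against KAT (log2 fold change -0.90, SE 0.18, adjusted p = 0.00291) and was higher in KPAT than in KPT (0.78, SE 0.18, adjusted p = 0.012). In KPAT against KAT the change was -0.12 (95% interval -0.51 to 0.27).

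Zmat3, a zinc finger protein that binds RNA and steers splicing, was at 29.6, 37.1, 29.0, 32 and 38.0 in KPAT, 15, 17.6, 15.7, 31 and 20.8 in KPT, and 37.9, 72.2, 51.8, 28.2 and 33.3 in KAT. Of the KPT tumours only KPT 4, at 31, reached the other groups. Zmat3 fell in KPT against KAT (log2 fold change -1.12, SE 0.24, adjusted p = 0.00403). Its rise in KPAT against KPT (0.77, SE 0.24, adjusted p = 0.0419) was close to the threshold and was lost in 17 of 32 alternative fits.

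Aen, a nuclease that p53 induces in apoptosis, was at 31.7, 37.9, 29.0, 31.3 and 37.5 in KPAT, 18.3, 16.6, 32.8, 35.7 and 21.3 in KPT, and 35.8, 52.0, 37.9, 34.1 and 35.6 in KAT. The KPT tumours split, with KPT 3 and KPT 4 at the level of the others. Aen fell in KPT against KAT (log2 fold change -0.70, SE 0.20, adjusted p = 0.0198), and the change was -0.63 (adjusted p = 0.0643) without KPT 1 and KAT 1, the tumours with the highest intestinal and acinar marker sums. The remaining genes of this role, Ei24 of the endoplasmic reticulum and the stress protein Trp53inp1, had changes between -0.31 and -0.09 in the 3 comparisons.

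**Figure D3:**
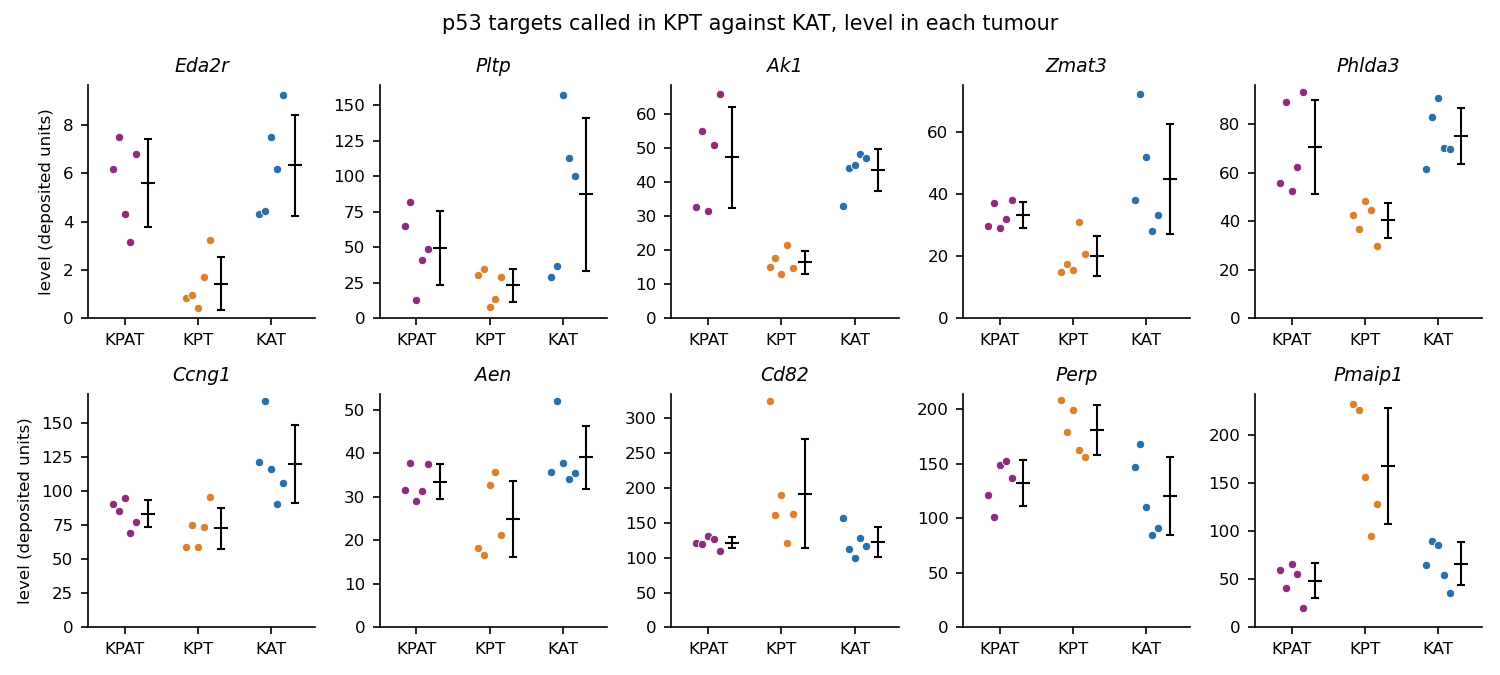
Level in deposited units (vertical axes, from 0) in each KPAT, KPT and KAT tumour (points, 5 a group) of the 10 p53 targets called in KPT against KAT, with mean ± SD in black. All 5 KPT tumours lie below the rest for Ak1 and Phlda3 and above the rest for Pmaip1, while Pltp and Cd82 owe much of their mean to a few tumours.

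The genes of the TNF receptor family include the target with the largest fold change, Eda2r (ENSMUSG00000034457, chrX:97333840-97377216), a receptor for ectodysplasin A2. Its level was 6.16, 7.52, 4.30, 3.15 and 6.81 in KPAT, 0.853, 0.959, 0.432, 1.72 and 3.25 in KPT, and 4.31, 4.45, 7.52, 6.18 and 9.23 in KAT. All KPT tumours lay below all KAT tumours, and KPT 5 reached the lowest KPAT tumour. Eda2r fell in KPT against KAT (log2 fold change -2.34, SE 0.44, adjusted p = 0.00181) and was higher in KPAT than in KPT (2.15, SE 0.44, adjusted p = 0.00703). These values rest on 8 to 203 reads a tumour. In KPAT against KAT the change was -0.19, with a 95% interval of -1.12 to 0.75. The KPT against KAT change was -1.97 (adjusted p = 0.102) with the epithelial markers as a covariate and -1.07 (adjusted p = 0.357) with the fibroblast markers. The receptor of the Fas ligand, Fas, and the TRAIL receptor Tnfrsf10b were not called, with changes of -0.37 and -0.26 in KPT against KAT.

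None of the 6 genes of DNA repair and nucleotide supply was called in any comparison by the main limma fit. At an unadjusted p under 0.05 were 0 in KPAT against KAT, 1 in KPT against KAT and 1 in KPAT against KPT. Of all 16648 genes there were 1798, 6857 and 5368. The median change of the 6 genes was -0.03 in KPAT against KAT, -0.18 in KPT against KAT and 0.11 in KPAT against KPT. They are Ddb2 and Xpc, which find damaged bases for nucleotide excision repair, Ercc5, its endonuclease, Polk, a polymerase that copies past lesions, Rrm2b, a ribonucleotide reductase subunit, and Rps27l, a ribosomal protein paralogue. Rps27l had the highest level per kilobase of exon of the 35 genes in KPAT (80.9 units per kb) and KAT (81.3), and together with Ei24 the smallest spread between tumours of a group (SD 0.16 on the log2 scale). Its change was -0.01 in KPAT against KAT (95% interval -0.25 to 0.23) and -0.19 in KPT against KAT (-0.43 to 0.04). It is also a gene whose window held a match to the p53 response element, which does not show binding. Xpc came nearest to a call, at 0.36 in KPT against KAT (adjusted p = 0.0777), and it was called in 4 of 32 alternative fits. These were limma with array weights (0.49, adjusted p = 0.0186), without KPAT 2 (0.36, 0.0269) and with only the 2 groups compared (0.36, 0.0471), and DESeq2. Ddb2 shares 20.2% of its 31-base stretches with Acp2. Of those of Rps27l 16.1% occur in other genes, and of those of Rrm2b 14.4%. The counts of Ddb2, Rps27l and Rrm2b may thus be split. Such shares were also 11.4% for Tnfrsf10b, 9.8% for Cdkn1a and 9.0% for Ei24.

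Of the 7 metabolic and stress genes 2 fell in KPT against KAT, Ak1 and Pltp, beside 15.6% of all genes. Ak1 had the smallest adjusted p of the 35 targets there. Ak1 (ENSMUSG00000026817, chr2:32621758-32635058) encodes adenylate kinase 1, which balances ATP, ADP and AMP. Its level was 32.6, 54.9, 31.6, 50.9 and 65.9 in KPAT, 15, 17.8, 13.1, 21.4 and 14.7 in KPT, and 32.9, 44.1, 44.9, 48.3 and 47.1 in KAT. No KPT tumour reached any tumour of the other groups. Ak1 fell in KPT against KAT (log2 fold change -1.41, SE 0.21, adjusted p = 4.23e-04) and was higher in KPAT than in KPT (1.48, SE 0.21, adjusted p = 0.00174). In KPAT against KAT, where Trp53 also differed, the change was 0.07 (95% interval -0.37 to 0.51). With the epithelial markers as a covariate the KPT against KAT change was -1.20 and still called, and with the fibroblast markers it was -0.81 (adjusted p = 0.144).

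Pltp, a phospholipid transfer protein of plasma lipoproteins, varied most between tumours of a group (SD 1.01 on the log2 scale). Its level was 64.7, 81.5, 12.6, 40.8 and 48.5 in KPAT, 30.4, 34.7, 7.83, 13.7 and 29.2 in KPT, and 29.1, 37.0, 157, 113 and 99.8 in KAT. KAT 1 and KAT 2 were close to the highest KPT tumours, far below the other 3. Pltp fell in KPT against KAT (log2 fold change -1.83, SE 0.57, adjusted p = 0.0274), a call lost without any of KPT 3, KPT 4, KAT 3, KAT 4 or KAT 5. With the fibroblast markers as a covariate the sign turned (0.77, adjusted p = 0.445). Of its 31-base stretches 13.9% are shared with Ctsa.

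Sesn1 and Sesn2, the sestrins that restrain mTORC1, were not called by the main limma fit. Sesn1 is named here for its unadjusted p, after its values were seen, and was at 24.5, 20.5, 17.1, 21.2 and 13.1 in KPAT, 21.4, 26.7, 15, 13.5 and 26.8 in KPT, and 26.2, 22.3, 44.5, 30.8 and 28.6 in KAT. Its change was -0.65 in KPAT against KAT (95% interval -1.16 to -0.15, adjusted p = 0.341) and -0.58 in KPT against KAT (-1.08 to -0.07, adjusted p = 0.0795). With array weights in limma, Sesn1 was called in KPT against KAT (-0.59, adjusted p = 0.0361). Tigar, a phosphatase that slows glycolysis, Dcxr, a xylulose reductase, and Abhd4, a lipid hydrolase, had changes of -0.14, 0.30 and 0.27 in KPT against KAT, none of them called.

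Of 3 membrane and matrix genes, Cd82 was called, higher in KPT against KAT, where 13.3% of all genes were called higher. This tetraspanin, known for restraining metastasis, was at 121, 120, 131, 127 and 109 in KPAT, 324, 161, 190, 121 and 163 in KPT, and 157, 112, 100, 128 and 116 in KAT. KPT 1, at 324, stood far above the rest, and KPT 4 lay within the range of the KPAT tumours. Cd82 rose in KPT against KAT (log2 fold change 0.58, SE 0.20, adjusted p = 0.0424), a call lost with the same sign in 14 of 32 alternative fits, among them the fit without KPT 1 (0.37, adjusted p = 0.0745). It was also lost, with the sign turned, with the epithelial markers as a covariate (-0.02, adjusted p = 0.963). Epha2, a receptor tyrosine kinase, and Sulf2, an extracellular sulfatase, ranged widely within each group (Epha2 from 190 to 429 in KPAT, 176 to 333 in KPT and 111 to 471 in KAT) and were not called.

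**Figure D4:**
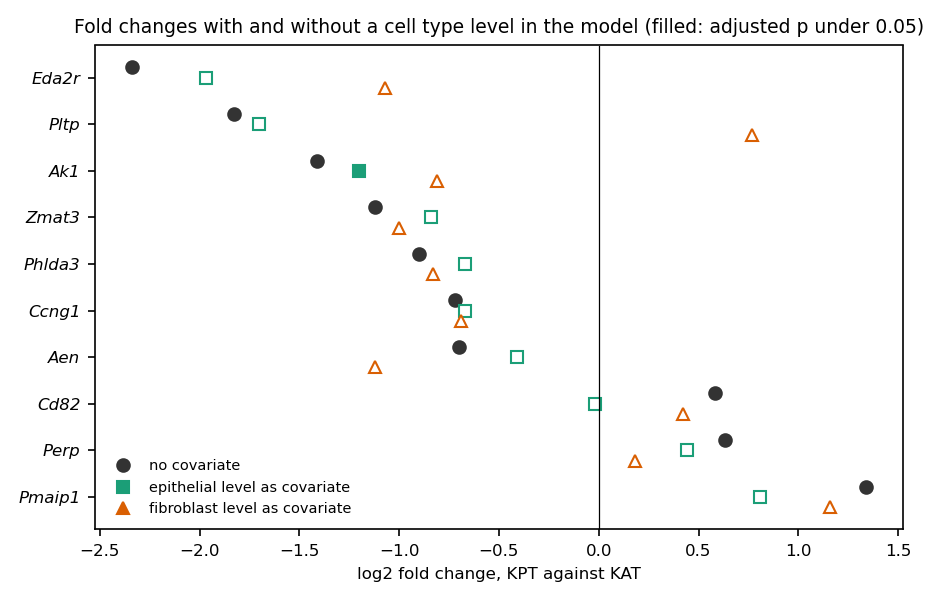
Log2 fold change in KPT against KAT (horizontal axis) of the 10 called p53 targets in fits without a covariate (circles), with the epithelial marker level (squares) and with the fibroblast marker level (triangles). Filled symbols have an adjusted p under 0.05: all 10 without a covariate, Ak1 alone with the epithelial level and none with the fibroblast level, under which Pltp changes sign.

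The summed picture per tumour was narrow. The median difference of the 35 targets from the mean of the KAT tumours ran from -0.24 to -0.09 on the log2 scale in the KPAT tumours, from -0.36 to -0.07 in the KPT tumours and from -0.12 to 0.16 in the KAT tumours. Over all genes tested, the same median ran from -0.04 to 0.01 across the tumours of the 3 groups. The KAT tumours are centred by construction, because their own mean is the reference. KAT 5 (-0.12) lay within the range of the KPAT and of the KPT tumours, and KAT 4 (-0.08) within that of the KPT tumours. The spread of a target between tumours of a group had a median SD of 0.35 on the log2 scale (0.16 to 1.01), against 0.39 over all genes tested.

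Regulators of p53, 22 of 24 tested, had a median log2 fold change of 0.01 in KPAT against KAT, where Trp53 was called lower and the other 21 were not called. In KPT against KAT 5 of the 22 fell and 2 rose, beside 15.6% called lower and 13.3% called higher over all genes, and the median was -0.00 against -0.03. Beside Trp53 they included Atm, the kinase that signals DNA breaks to p53 (log2 fold change -0.91, SE 0.24, adjusted p = 0.011), Mdm4, the partner of Mdm2 (-0.51, adjusted p = 0.0148), the SUMO ligase Pias1 (-0.63, adjusted p = 0.00842) and the histone chaperone Daxx (0.44, adjusted p = 0.00685). In KPAT against KPT, beside 9.13% called higher and 7.4% called lower over all genes, 3 were higher (Trp53, Atm at 0.79 and the kinase Hipk2 at 0.76) and Daxx was lower (-0.43, adjusted p = 0.0139).

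Other genes described as p53 targets elsewhere, 46 of 49 tested, were counted beside the 35. None was called in KPAT against KAT by limma, and the median was -0.03. At an unadjusted p under 0.05 were 7 of the 46, beside 10.8% of all genes. In KPT against KAT 10 of the 46 fell and 7 rose (median -0.09). In KPAT against KPT 3 were lower and 3 higher (median 0.05). Over all genes 15.6% were called lower and 13.3% higher in KPT against KAT (median -0.03), and 7.4% and 9.13% in KPAT against KPT (median 0.02). Ptprv, a phosphatase that p53 induces in mouse cells, fell in KPT against KAT (log2 fold change -2.12, SE 0.43, adjusted p = 0.00276). Its level rests on only 8 to 98 reads a tumour. Ndrg4 (-1.50, adjusted p = 0.00219) and Pml, the organiser of PML nuclear bodies (-0.61, adjusted p = 0.00157), fell with it. Prkab1, a regulatory subunit of AMP-activated kinase (1.03, adjusted p = 2.75e-04), and the apoptosis factor Siva1 (0.75, adjusted p = 9.16e-04) rose. All 5 were called in the opposite direction in KPAT against KPT, a comparison that shares the KPT tumours.

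Cell cycle genes that p53 is known to lower indirectly, through Cdkn1a and the DREAM repressor complex, were all measured (22 of 22). In KPAT against KAT limma called none, with a median log2 fold change of 0.68 and 22 of 22 above 0. At an unadjusted p under 0.05 were 6 of the 22, beside 10.8% of all genes. In KPT against KAT 9 of the 22 rose, beside 13.3% of all genes, with a median of 0.96 against -0.03 over all genes and 22 of 22 above 0. Among them were Birc5, the survivin gene (1.31, SE 0.39, adjusted p = 0.021), the mitotic kinase Cdk1 (0.92, adjusted p = 0.0281), Cdc20, an activator of the anaphase-promoting complex (1.31, adjusted p = 0.0306), and Cks1b, a subunit of cyclin-dependent kinases (0.70, adjusted p = 0.032). Birc5 was at 11.1, 5.71, 2.92, 11.2 and 12.9 in KAT. It ran from 7.36 to 25.1 in KPAT and from 15.2 to 23.7 in KPT. KAT 2 and KAT 3 were thus its lowest tumours, and the other KAT tumours lay within the KPAT range. Cks1b was instead lowest in KAT 4 (16.1). In KPAT against KPT limma called none of the 22, with a median of -0.22. At an unadjusted p under 0.05 were 0 of them, beside 5368 of all 16648 genes. These genes are regulated together, so their shared direction is a single pattern and not 22 separate ones. The summed epithelial markers were also higher in KPT, and their part in this pattern was not tested.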

How the data were processed

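The deposited table gives a signal per Ensembl gene in 15 libraries. Per the submitters' processing notes, HISAT2 2.0.4 was used with mm10 (GRCm38); how reads were counted, on which strand, with which annotation and how they were normalized is not stated there or in the labels. The deposited signal values are whole reads divided by 1 factor per library: multiplied by it, 100% fell within 0.01 of a whole number. The design assumed values on the scale of reads, so values were multiplied by 19.478 before a pseudocount of 1 and a minimum mean of 10 were applied. R 4.3.3 with limma 3.58.1 fitted a mean per genotype to the log2 values of the 15 libraries together, with trended eBayes, two-sided tests and Benjamini-Hochberg adjustment over 16648 genes. edgeR 4.0.16 (quasi-likelihood) and DESeq2 1.42.0 were run on the recovered reads as alternatives. Symbols came from GENCODE for 20574 of 20636 gene IDs, and the model was tested on simulated data. Intervals are 95% limma intervals with 15.2 degrees of freedom.

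Targets, gene lists and markers were chosen with earlier results of these data known. Values per tumour are given for called targets and for Cdkn1a, Mdm2, Bax, Bbc3 and Pmaip1, with Sesn1 added after its values were seen, and up to 5 called genes with the smallest p are named from each pathway list; 1 gene taken by this rule is not reported here. The design placed the p53 response element search in a wider window around gene starts; only the 300-base RefSeq windows of GRCm38.p6 were used. The labels number the tumours but do not say that each came from its own mouse, so p-values measure the spread between these samples. Python 3.11.15 with pandas 2.3.3, numpy 2.4.6 and matplotlib 3.10.9 made tables and plots.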

Additional observations from a re-analysis of the deposited data

Results flagged for a closer look

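In 6 of 105 sets of 5 tumours (35 targets in 3 groups) 1 tumour stood apart, with a gap to its nearest neighbour of over 0.71 of the group's range on the log2 scale. Chance alone flags about 1 in 20 such sets. Ei24 was at 96.8 units in KPAT 4, where the other KPAT tumours ran from 65.2 to 71.5. Xpc was at 31 in KPAT 2, against 46.4 to 54.1 in the other KPAT tumours. Bbc3 was at 10.3 in KPT 3, against 18.7 to 23.8 in the other KPT tumours. Fas was at 6.67 in KPT 1, against 4.23 to 4.73 in the other KPT tumours. Aen was at 52.0 in KAT 2, against 34.1 to 37.9 in the other KAT tumours. Ak1 was at 32.9 in KAT 1, against 44.1 to 48.3 in the other KAT tumours.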

How the results depend on the processing

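Over 32 alternative fits, KPAT against KAT kept 0 called targets in each. In KPT against KAT the 10 calls fell to 1 with the epithelial covariate (1 lower, 0 higher) and to 0 with the fibroblast covariate (0 lower, 0 higher), under which the median was 0.01. DESeq2 gave 5 higher. Leaving out single libraries gave 1 to 4 higher calls and medians of -0.33 to -0.13. Pltp turned to 0.77 with the fibroblast covariate and Cd82 to -0.02 with the epithelial covariate; neither was then called. In KPAT against KPT the 5 calls fell to 0 with either covariate (0 lower, 0 higher), and the median was -0.03 with the fibroblast covariate. Excluding KPT 1 and KAT 1, a choice made after seeing the data, gave a median of 0.03. Lower calls were 2 by edgeR and 3 by DESeq2. Leaving out single libraries gave 1 to 3 lower calls and medians of 0.03 to 0.16. The cause of these changes was not tested. The replicate numbers did not pair the tumours (correlations of same-numbered tumours -0.209 to 0.246, 5 of 15 over 0.1), and the replicate block left 0 calls in KPAT against KAT, 10 in KPT against KAT and 4 in KPAT against KPT, where Zmat3 was lost. Over all genes, the 8 calls in KPAT against KAT became 515 with array weights, 284 by DESeq2, 4 on the deposited scale, 15 with only the 2 groups compared, 17 with quantile scaling and 36 without KAT 2. The 4805 calls in KPT against KAT became 748 (epithelial) and 437 (fibroblast). The 2752 calls in KPAT against KPT became 55, 134, 1811 with only the 2 groups compared and 1686 without KPAT 2. Depth limits Gdf15 and Eda2r most, with as few as 8 reads in a tumour; Eda2r, Gdf15 and Fas missed the minimum on the deposited scale, and Gdf15 also a minimum mean of 50, and were not tested there.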
